A study of Homo sapiens with 2 samples.

Results

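The genes described here are 42 components of the Wnt pathway, chosen by name: 19 Wnt ligands, 10 Frizzled receptors, the coreceptor LRP5, the R-spondin receptors LGR4 and LGR5 with the ubiquitin ligases RNF43 and ZNRF3, 4 genes of the beta-catenin destruction complex, and 4 TCF/LEF transcription factors. A member was measured where a transcript cluster of the array carried its symbol alone, which held for 40 of the 42, of 22465 genes measured in this way. Each of the 40 had 1 such cluster. FZD8 shared its cluster with the microRNA gene MIR4683, and TCF7 matched no cluster, so neither has a value below.

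The cells were of the human line NCI-H446, derived from a small cell lung carcinoma, and were stably transfected with either a control vector or an MTA1 expression plasmid. MTA1 belongs to NuRD, a chromatin remodelling and histone deacetylase complex. RNA of each group went onto a single array, called here the control and the MTA1 array, and the comparison asks which transcripts differ when MTA1 is overexpressed. Since a group had 1 array, no test was possible, differences have no replicate check, and each value describes these 2 arrays. The promoter of the plasmid and whether the cells were 1 clone or a pool are not given in the sources consulted.

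MTA1 stood at a log2 signal of 7.31 in control and 9.82 in MTA1-overexpressing cells, 5.71-fold higher, as labelled. Of 8 measured neuroendocrine markers of small cell lung cancer, 3 (INSM1, UCHL1 and ENO2) reached the signal floor of 3.62, the level that the mean of both arrays exceeded for 50% of transcript clusters. CHGA, SYP, NCAM1, GRP and DLL3 were below it on both arrays, and YAP1 lay at 10.10 and 10.11. Of the 3 epithelial markers KRT8 stood at 13.66 and 14.39, 1.66-fold higher and further apart than any member, KRT18 at 12.92 and 13.19 and EPCAM at 3.96 and 4.18. The 3 measured leukocyte markers were below the floor, as were 2 of 3 endothelial and 2 of 3 fibroblast markers. The exceptions were PECAM1, at 4.12 and 4.08, and DCN, at 3.89 and 3.53, and the part of any of these markers in the results was not tested. The deposited log2 signals reached 19.93 although a 16-bit scanner reading ends at 16, so they hold a further transformation that is not given, on which all fold sizes depend. Bacterial hybridisation controls, RNAs added in the same amount to each sample by the standard protocol, were 0.23 to 0.28 log2 units higher on the MTA1 array. Of the 25 members that reached the floor, 14 differed by less than 0.1. The 23 array background controls had a median difference of -0.0055. Fewer cells that express a gene and less RNA per cell cannot be told apart in these bulk samples.

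Wnt ligands are secreted, lipid-modified glycoproteins that bind Frizzled receptors on the cell surface. With the coreceptors LRP5 and LRP6 they stop a complex of AXIN, APC and the kinase GSK3 from marking beta-catenin for breakdown, and beta-catenin then joins TCF/LEF factors on DNA. Other ligands, WNT5A foremost, act mainly through branches that do not need beta-catenin and use the receptors ROR1, ROR2 and RYK. R-spondins, through LGR4 and LGR5, block RNF43 and ZNRF3, which otherwise remove Frizzled proteins from the membrane.

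Differences between the arrays were small. Of the 40 measured members 25 reached the floor on at least 1 array, or 10 of 19 ligands and 8 of 9 Frizzled genes, beside 64.3% of all measured genes. None of the 25 was 2-fold apart, where 0.63% of 14451 genes at or above the floor were, and none was 1.5-fold apart, where 3.2% of all genes were. With a smaller fold of 1.2, a log2 difference of 0.26, there were 3 members higher on the MTA1 array (FZD10, FZD1 and WNT7B) and 2 lower (WNT5A and APC), or 12.0% and 8.0% of the 25. Among all genes at or above the floor 8.4% were higher and 9.35% lower by that fold, so the shares among the members are near the background. The median difference of the 25, MTA1 minus control, was -0.0050, against -0.013 over all genes, with 12 members above 0 and 13 below.

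**Figure D1:**
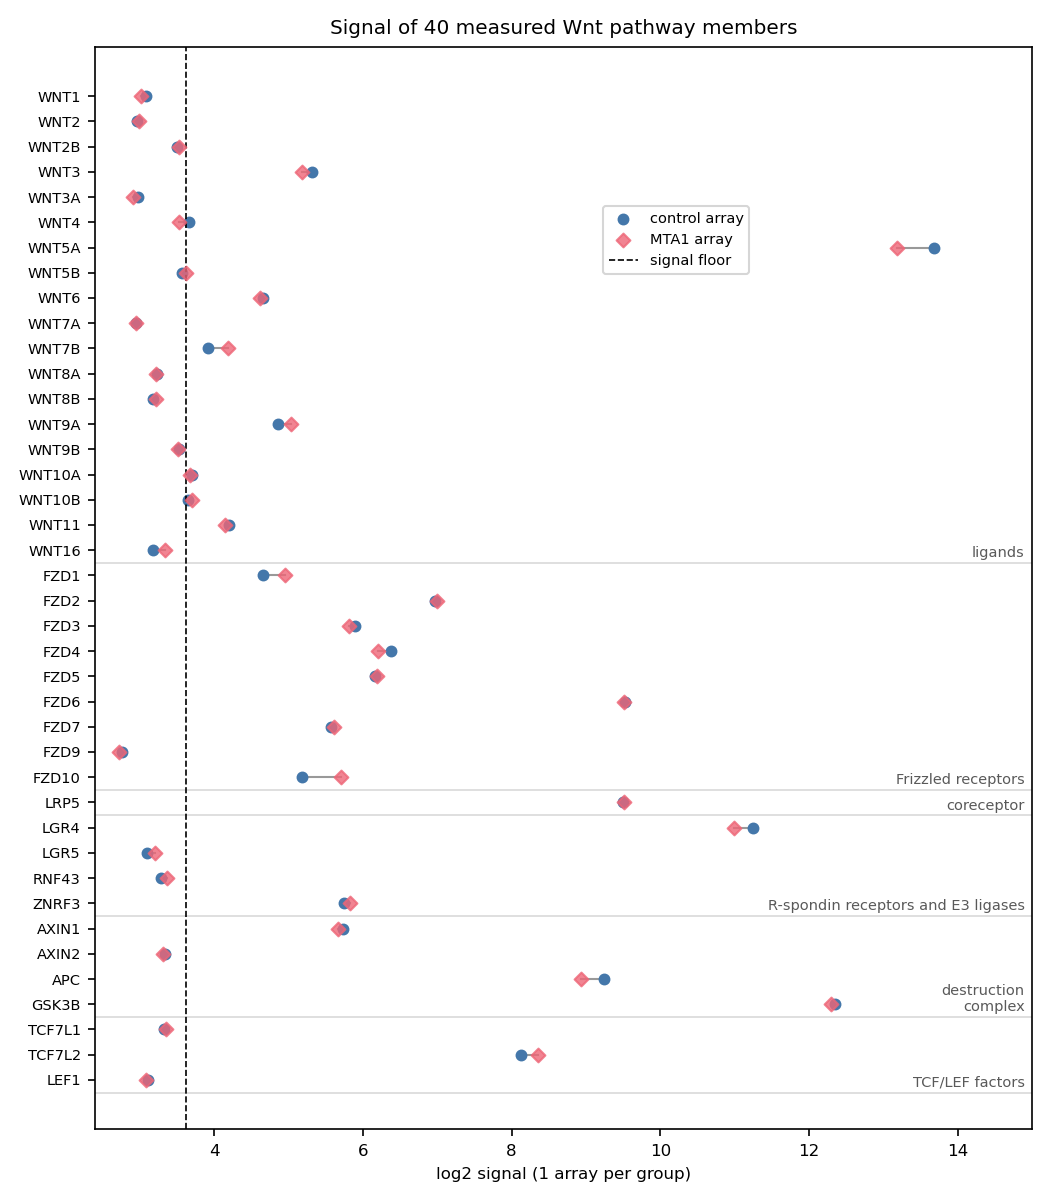
Log2 signal (x axis) of the 40 measured members, ordered by role, with 1 point for the control array and 1 for the MTA1 array and the signal floor of 3.62 as a dashed line. The 2 points of most members nearly coincide, and WNT5A and FZD10 are the furthest apart.

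The promoter sequences of the members furthest apart are given for reference, as far as RefSeq's table of the GRCh38.p14 build holds them. The table held 31 of the 42 members, and WNT7B, WNT10B, WNT11, FZD2, FZD3, FZD6, FZD7, FZD10, AXIN2, ZNRF3 and LGR5 had no entry. The lines below show the 250 bases before each transcription start, 5′ to 3′ on the gene's own strand. Capitals mark matches, on either strand, to the E-box CAGGTG, a sequence that Snail-type repressors bind, and to the GC box GGGCGG, a site of Sp1-type factors. WNT5A and APC each have 2 starts, and the array values do not separate them.
WNT5A, upstream start, chr3:55487307-55487556, minus strand: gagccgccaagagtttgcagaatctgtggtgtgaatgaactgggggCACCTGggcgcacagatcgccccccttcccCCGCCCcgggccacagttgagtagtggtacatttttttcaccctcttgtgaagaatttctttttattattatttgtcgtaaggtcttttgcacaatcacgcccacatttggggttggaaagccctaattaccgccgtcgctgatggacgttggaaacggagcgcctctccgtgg
WNT5A, downstream start, chr3:55481399-55481648, minus strand: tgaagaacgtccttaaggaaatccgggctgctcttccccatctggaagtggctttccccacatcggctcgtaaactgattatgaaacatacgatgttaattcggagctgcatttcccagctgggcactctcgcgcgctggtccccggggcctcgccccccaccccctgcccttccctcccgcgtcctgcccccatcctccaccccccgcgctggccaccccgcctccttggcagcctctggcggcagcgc
APC, upstream start, chr5:112707248-112707497, plus strand: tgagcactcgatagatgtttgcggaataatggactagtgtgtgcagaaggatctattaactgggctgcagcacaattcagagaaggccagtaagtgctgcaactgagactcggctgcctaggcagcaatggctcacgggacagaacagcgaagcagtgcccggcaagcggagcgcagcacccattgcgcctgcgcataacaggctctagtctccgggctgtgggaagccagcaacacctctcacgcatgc
APC, downstream start, chr5:112737635-112737884, plus strand: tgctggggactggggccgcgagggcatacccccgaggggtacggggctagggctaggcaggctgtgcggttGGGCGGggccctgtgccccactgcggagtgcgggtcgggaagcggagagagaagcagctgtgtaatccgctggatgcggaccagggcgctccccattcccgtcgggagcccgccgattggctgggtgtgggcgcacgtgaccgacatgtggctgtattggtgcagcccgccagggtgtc
FZD1, chr7:91264183-91264432, plus strand: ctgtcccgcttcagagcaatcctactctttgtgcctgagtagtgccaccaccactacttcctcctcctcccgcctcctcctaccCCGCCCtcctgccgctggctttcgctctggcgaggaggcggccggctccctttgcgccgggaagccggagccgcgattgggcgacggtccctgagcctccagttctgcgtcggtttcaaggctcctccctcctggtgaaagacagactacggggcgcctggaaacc
The upstream WNT5A window holds 1 E-box and 1 GC box, the downstream APC window and the FZD1 window hold 1 GC box each, and the other windows hold neither. For the core of the TCF/LEF motif only the form CTTTGA was searched, on both strands. It occurred in none of the 39 windows of the 31 members, while 11.2% of 35116 promoters of the same length held it. The form CTTTGT was not counted, and windows of TCF7 and TCF7L2 hold it, so the members do not lack the motif. The E-box occurred in 8 of the 39 windows and in 17.5% of all promoters, and the GC box in 27 of the 39 and in 42.6% of all. The GC content of the 39 windows ran from 42.4% to 87.2%, and the shares were not adjusted for it, though it affects how often each motif occurs. These matches describe letters in 250-base windows and no binding was measured.

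WNT5A had the largest lower difference among the members. It stood at 13.68 on the control and at 13.18 on the MTA1 array, 0.50 log2 units or 1.42-fold lower. Of all genes at or above the floor 2.41% were lower by at least as much, and both arrays lay far above the floor. WNT5B, the closest relative of WNT5A, had no such signal, at 3.56 and 3.62, about the floor itself.

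The other ligands differed little or lay near or below the floor. WNT7B, a ligand of lung epithelium during development, stood at 3.91 and 4.19 and was 1.21-fold higher on the MTA1 array. Both of its values lay within 1 log2 unit of the floor, and 7.90% of genes were higher by at least as much. WNT9A stood at 4.86 and 5.03, 1.13-fold higher, and WNT3, a ligand that signals through beta-catenin, at 5.32 and 5.18, 1.10-fold lower. Together with WNT5A these were the 3 ligands whose values lay at least 1 log2 unit above the floor on both arrays. WNT6 stood at 4.65 and 4.61 and WNT11, a ligand known from cell movements in the embryo, at 4.20 and 4.14. WNT10A, at 3.70 and 3.68, and WNT10B, at 3.65 and 3.70, were just above the floor on both arrays. WNT4 reached it on the control array, at 3.65 against 3.53, and WNT5B on the MTA1 array.

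For 9 ligands both arrays were below the floor: WNT1, WNT2, WNT2B, WNT3A, WNT7A, WNT8A, WNT8B, WNT9B and WNT16. Their signals ran from 2.94 to 3.53 in control and from 2.91 to 3.52 in MTA1 cells, and their differences from -0.068 to 0.16. The floor was not set from background controls, and whether these signals differ from background was not tested. Among these 9 ligands are WNT1 and WNT3A, the ligands most used to stimulate beta-catenin signalling in culture. Several Wnt genes lie side by side on a chromosome, and 3 such pairs of neighbouring coding genes were among the members. In the pair on chromosome 17 WNT3 was above the floor and WNT9B below it, and on chromosome 12 WNT10B was just above the floor and WNT1 below it. On chromosome 2 both WNT6 and WNT10A reached it.

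Among the receptors FZD10 had the largest higher difference of the members. It stood at 5.18 on the control and at 5.71 on the MTA1 array, 0.53 log2 units or 1.44-fold higher, and 1.94% of genes at or above the floor were higher by at least as much. FZD1 stood at 4.65 and 4.96, 1.24-fold higher, with 6.62% of genes at least as far apart in that direction. FZD2 and FZD7, which with FZD1 form 1 subfamily of the receptors, were close to level. FZD2 stood at 6.97 and 6.99 and FZD7 at 5.56 and 5.62. The receptor pair FZD5 and FZD8 is represented by FZD5, at 6.16 and 6.18.

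FZD4, which also binds the ligand norrin, stood at 6.38 and 6.20, 1.13-fold lower, and is of the same subfamily as FZD9 and FZD10 (FZD9 was below the floor at 2.75 and 2.72). FZD3 and FZD6, receptors tied to planar cell polarity, stood at 5.90 and 5.81 and at 9.52 and 9.51. All 8 Frizzled genes that reached the floor did so on both arrays by at least 1 log2 unit. Their median difference was 0.027, with 5 above 0 and 3 below. The coreceptor gene LRP5 was level, at 9.50 and 9.52.

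**Figure D2:**
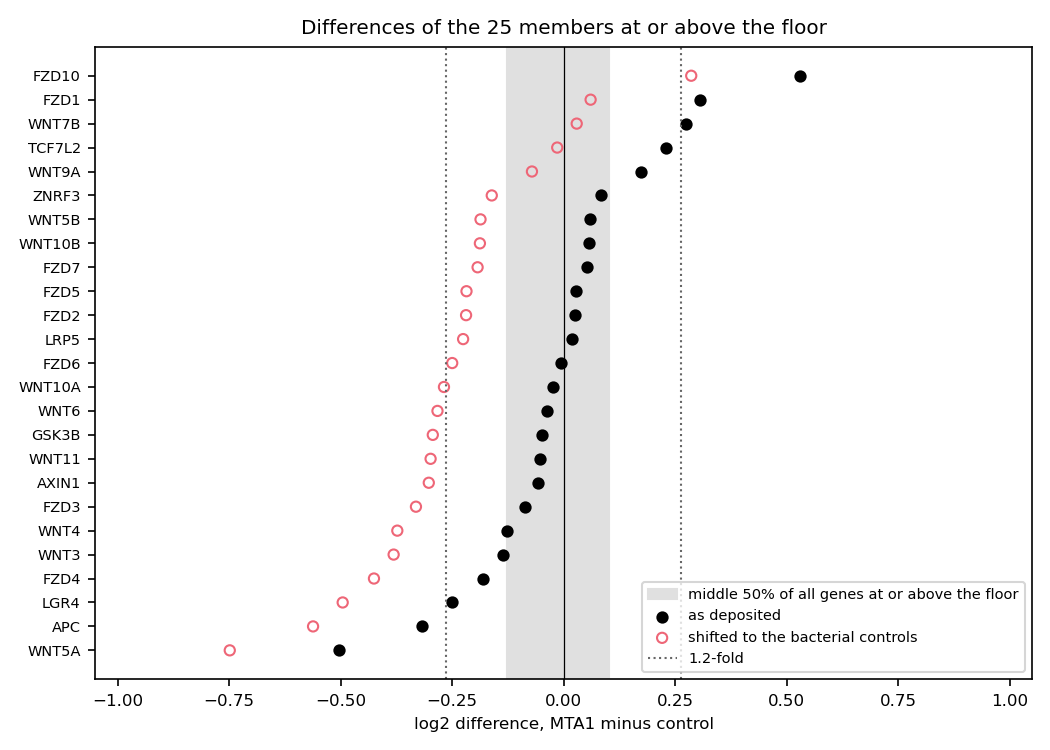
Log2 difference, MTA1 minus control (x axis), of the 25 members at or above the floor, as deposited (filled) and after a shift of all differences to the mean of the 4 bacterial controls (open), with the middle 50% of all genes shaded and 1.2-fold dotted. FZD10 is at 0.53 and WNT5A at -0.50 as deposited, and at 0.29 and -0.75 after the shift.

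In the group that sets receptor turnover, LGR4, a receptor for R-spondins, stood at 11.24 and 10.99, 1.19-fold lower, just inside the 1.2-fold limit. ZNRF3 stood at 5.74 and 5.82. LGR5 and RNF43, which are also target genes of beta-catenin signalling, were below the floor on both arrays, LGR5 at 3.10 and 3.20 and RNF43 at 3.28 and 3.36.

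In the destruction complex, APC, the scaffold whose loss drives colorectal tumours, stood at 9.25 and 8.93, 1.25-fold lower, and 6.50% of genes were lower by at least as much. The scaffold gene AXIN1 stood at 5.73 and 5.67, and the kinase gene GSK3B at 12.35 and 12.30. AXIN2, a feedback inhibitor widely used as a readout of beta-catenin signalling, was below the floor at 3.33 and 3.31.

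Of the TCF/LEF factors, TCF7L2 was the 1 measured member above the floor, at 8.13 and 8.36, or 1.17-fold higher, and 10.5% of genes were higher by at least as much. LEF1, at 3.11 and 3.08, and TCF7L1, at 3.32 and 3.35, were below the floor on both arrays. The target genes AXIN2, LGR5, RNF43 and LEF1 were thus below the floor both with and without the MTA1 plasmid, and ZNRF3, also a target, differed by 0.084. Other members may be target genes too, and no full list of targets was used.

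A constant shift of the arrays matters for differences of this size. When all differences were lowered by 0.24, the mean of the 4 bacterial controls, FZD10 kept 0.29, whereas FZD1 came to 0.060, WNT7B to 0.029 and TCF7L2 to -0.015. WNT5A came to -0.75, APC to -0.56 and LGR4 to -0.50. The count past 1.2-fold then became 1 higher and 12 lower of 25, where the same shift put 2.13% of all genes past that fold on the higher side and 48.8% on the lower side, so these counts are near the background too. The array background controls measure no added RNA, so their median difference cannot show whether such an offset holds for true signal. Which scale is right was not tested.

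**Figure D3:**
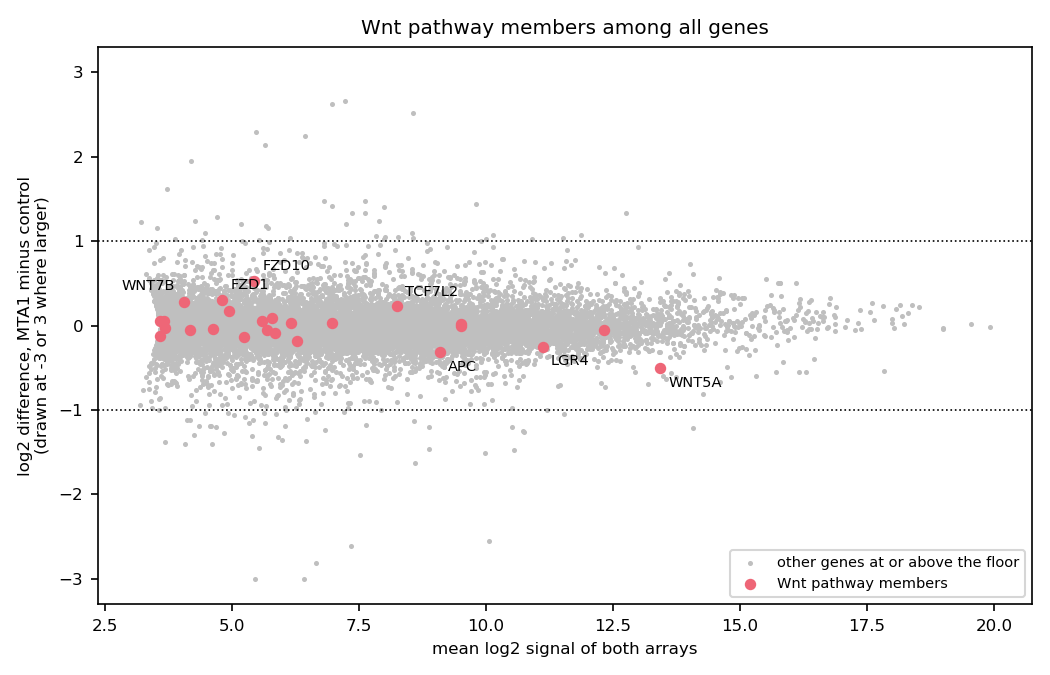
Log2 difference, MTA1 minus control (y axis), against the mean log2 signal of both arrays (x axis) for all genes at or above the floor (grey) and the members (red), with 2-fold dotted. All 25 members lie inside the 2-fold lines, and WNT5A and FZD10 lie toward the edges of the grey cloud.

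There were 3 members at or above the floor with an antisense or divergent transcript that also reached it, named by the array's annotation after the gene, and all 3 such transcripts differed in the direction of their gene. WNT5A-AS1 stood at 4.30 on the control and 3.93 on the MTA1 array, 1.30-fold lower, beside the lower WNT5A. FZD10-AS1 stood at 4.01 and 4.28, 1.21-fold higher, beside the higher FZD10. FZD4-DT stood at 5.14 and 4.86, 1.21-fold lower, beside FZD4. ZNRF3-AS1 and LEF1-AS1 were below the floor. Over all 247 such pairs with both transcripts at or above the floor, 55.5% had differences of 1 sign, and the Pearson r of the 2 differences was 0.15, a description across pairs of genes measured on the same 2 arrays. Of 36 pairs whose gene was at least 1.2-fold apart, 8 had a partner at least 1.2-fold apart in the same direction, the WNT5A and FZD10 pairs among them. These pairs were singled out after their values were seen, and whether the labelling kept the strand is not given, so signal from a gene and from its antisense transcript cannot be told apart.

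**Figure D4:**
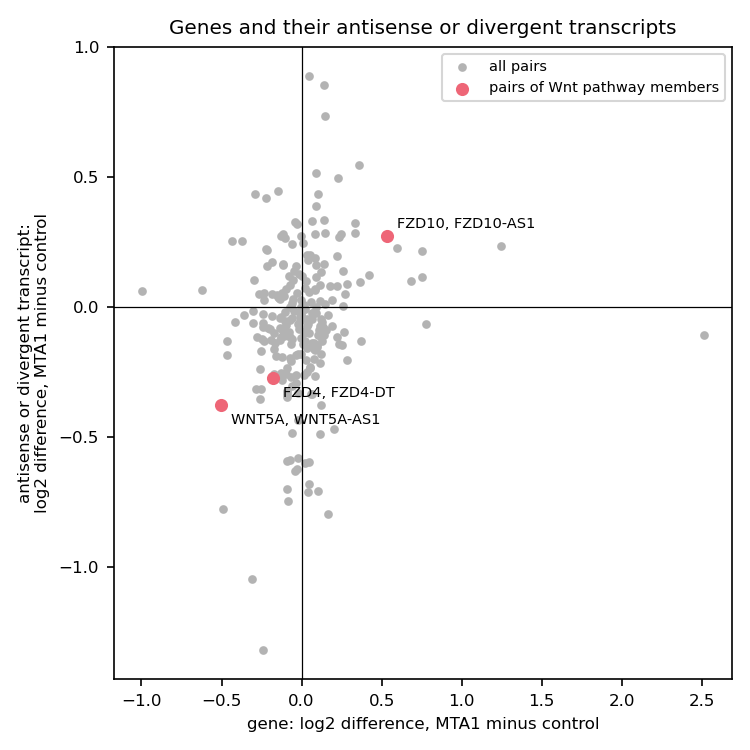
Log2 difference, MTA1 minus control, of a gene (x axis) and of its antisense or divergent transcript (y axis) for 247 pairs (grey), with the pairs of 3 members in red. FZD10 lies in the upper right, and WNT5A and FZD4 in the lower left.

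The remaining pathway was also close to level. Of 52 other Wnt pathway genes 48 were measured and 40 reached the floor. None was 2-fold apart, 1 was higher and 2 were lower by 1.2-fold or more, or 2.5% and 5.0%, beside 8.4% and 9.35% of all genes. With so few genes past the fold, these shares cannot be told from those of all genes. Their median difference was 0.0061, with 21 above 0 and 19 below. Receptors known to bind WNT5A went both ways. ROR1 stood at 6.91 and 6.62, 1.22-fold lower, and ROR2 at 4.24 and 4.53, 1.22-fold higher. RYK stood at 12.29 and 12.05, 1.18-fold lower, and the coreceptor LRP6 at 10.71 and 10.48, 1.17-fold lower. PTK7, a pseudokinase receptor of planar polarity, stood at 4.39 and 4.57.

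WLS, the carrier that brings lipid-modified Wnt proteins to the cell surface, stood at 9.78 and 10.02, 1.18-fold higher. Among nuclear cofactors TLE1, a corepressor of TCF/LEF factors, stood at 6.31 and 6.02, 1.22-fold lower, and PYGO1, a coactivator of beta-catenin, at 6.20 and 6.02. The 3 Dishevelled genes, which relay the signal from Frizzled, were within 1.2-fold, as were the 8 measured genes of the destruction complex and its regulators, all of which reached the floor. Of 7 genes known as feedback targets 4 reached the floor, and none of the 4 was 1.2-fold apart. All 4 lay close to the floor of 3.62, NKD2 the highest at 3.81 and 3.75, so their level is uncertain. Of 4 R-spondin genes RSPO3 alone reached the floor, on the MTA1 array, at 3.60 and 3.69. RSPO1, at 3.57 and 3.57, and RSPO4, at 3.58 and 3.61, lay just below the floor, so it hardly separates them from RSPO3. RSPO2 was lower, at 3.11 and 3.15.

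**Figure D5:**
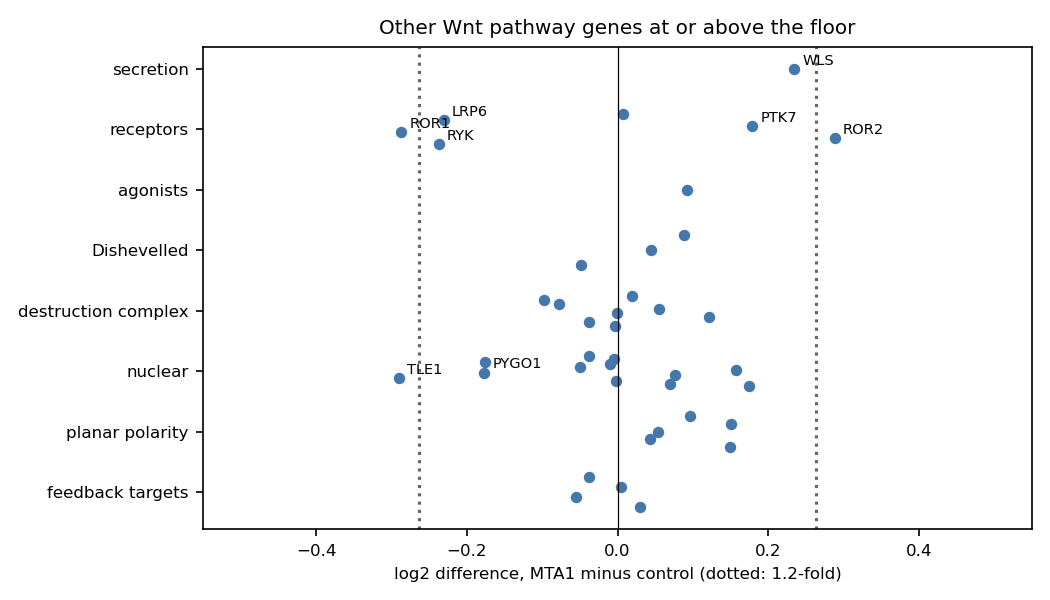
Log2 difference, MTA1 minus control (x axis), of 40 other Wnt pathway genes at or above the floor, by role (y axis), with 1.2-fold dotted and the 8 genes of largest difference named. ROR2 lies beyond the right line, and ROR1 and TLE1 beyond the left.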

How the data were processed

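Total RNA of 1 control and 1 MTA1 culture was hybridised to Affymetrix arrays. Per the submitters' processing notes, the deposited log2 signals were made by the authors with RMA. Software version, summarisation level and further transformations are not stated in those notes. No further normalisation was applied. Clusters with a single gene symbol in the platform's probe table took the current RefSeq symbol by gene identifier, and each gene was represented by its brightest cluster. A gene was kept if its higher value reached the floor. No test was run, and the number of arrays limits the precision. Folds of 2 and 1.2 were fixed rules of size. The members and lists were chosen with earlier results of these data known. All members were named, with the 8 other pathway genes of largest difference, MTA1, and some of the markers. Promoters were read from RefSeq's table. The counting steps were tested on simulated data. Alternative settings varied the fold, the probe set, the floor and the scaling. Python 3.11.15, numpy 2.4.6, pandas 2.3.3, matplotlib 3.10.9, R 4.3.3 and limma 3.58.1 (cyclic loess) were used.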

Additional observations from a re-analysis of the deposited data

How the results depend on the processing

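No paired analysis was possible because each group had 1 array. No member was 2-fold apart under any of the 8 alternatives to the scaling, floor and probe set. Without a floor all 40 measured members were kept. With the floor at percentile 50 the count of members kept was 23 to 25. It was 14 with the floor at percentile 75, which tests fewer genes. The count at least 1.2-fold higher, 3 as deposited, was 1 with that floor, 1 after the shift to the bacterial controls and 0 at 1.5-fold. It was 4 after quantile normalisation and after cyclic loess, where TCF7L2 passed too, at 0.29 and 0.28. The count at least 1.2-fold lower, 2 as deposited, was 12 after the shift, which put 48.8% of all genes there, and 0 at 1.5-fold. The shift moved the median difference of the members to -0.25 and that of the other pathway genes to -0.24, as it lowers every difference alike. For the other pathway genes it left 0 at least 1.2-fold higher and 14 of 40 lower, beside 2.13% and 48.8% of all genes. Their counts were 2 higher and 0 lower after quantile normalisation or cyclic loess, and 0 higher with the floor at percentile 75, with 2 lower. For quantile normalisation and loess the cause was not tested. A value was taken as moved where it changed by more than 0.13, the pooled SD of differences between probe sets of 1 gene over 273 genes. The shift exceeds that by construction. No member with a value moved by as much after quantile normalisation, centring or loess. The floor settings and the mean of probe sets cannot change a member's value, since each had 1 cluster. The sign changed for WNT6, FZD6 and AXIN1 after quantile normalisation. FZD6 also changed sign after centring and loess. The shift to the bacterial controls changed the sign of 9 of 25 members, all from higher to lower. These were WNT5B, WNT9A, WNT10B, FZD2, FZD5, FZD7, LRP5, ZNRF3 and TCF7L2.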

Other observations

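Some coding genes next to members differed more than those members did. EPB41L4A, the measured neighbour of APC on chromosome 5, stood at 8.16 and 7.70 (control array first), lower like APC. CDK14, the neighbour of FZD1 on chromosome 7, stood at 7.01 and 7.22 beside the higher FZD1, whose own difference was larger. Other neighbours went against their member. VTI1A, next to the higher TCF7L2, stood at 7.42 and 7.23. The lower FZD4 lay between PRSS23, which went against it at 8.64 and 8.85, and TMEM135, lower like FZD4 at 7.73 and 7.51. ADIPOR2, next to WNT5B, stood at 10.83 and 10.40, and CHCHD4, next to WNT7A, at 7.06 and 6.70, while these ligands lay about or below the floor. CDK5R2, next to WNT10A, stood at 4.06 and 4.72, and TSPAN8, next to LGR5, at 4.47 and 5.01, while WNT10A lay just above the floor and LGR5 below it. The neighbours of WNT5A, LRTM1 and ERC2, and of FZD10, TMEM132D and PIWIL1, were below the floor on both arrays. These neighbours were looked at after the values of the members were seen, and RefSeq order served only to find them.

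The cluster shared by FZD8 and MIR4683 stood at 6.46 and 6.41, and which of the genes it measures cannot be told from these values.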
